A study of Homo sapiens with 4 samples.

Results

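The 34 genes described here carry glucose into the cell, run glycolysis, steer its end product to lactate, or belong to the classic set of transcripts induced by low oxygen. They were chosen by name, with earlier results of these data known. Of them, 3 are glucose transporters and 16 are glycolytic enzymes. Another 5 serve lactate, pyruvate fate and the control of phosphofructokinase, and 10 are other hypoxia-induced genes. The subunits of the hypoxia-inducible factor (HIF) and the oxygen sensors were left out. All 34 had a row among the 62655 genes of the count table, and all 34 passed the filter on low counts. The cells were Hep G2, an established human hepatoma line much used in place of hepatocytes. They were plated at 150000 per ml, moved after 24 h to medium rich in oleic acid, and transfected with HiPerFect reagent 24 h later. The 2 mimic libraries came from cells given a synthetic mimic of LysTTT-5'tRF, a fragment cut from the front of the lysine tRNA with anticodon TTT. The 2 control libraries came from cells given a negative control oligonucleotide. RNA was collected 24 h after transfection. Lipid loading and transfection were thus shared by both groups, and cells without either treatment were not analysed here. The data come from 1 cell line in bulk culture, and neither the oxygen tension nor the glucose content of the medium is stated in the labels.

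Glycolysis splits glucose into pyruvate in the cytosol. Hexokinase traps glucose as its phosphate, phosphofructokinase commits it to breakdown, and pyruvate kinase makes the last ATP before lactate dehydrogenase turns pyruvate into lactate. When oxygen is scarce, HIF is no longer marked for destruction and binds the core letters ACGTG or GCGTG of hypoxia response elements near the genes for transporters, glycolytic enzymes, angiogenic factors and mitophagy receptors. Hepatoma cells use this programme heavily and replace the liver forms GLUT2, glucokinase and liver pyruvate kinase by the widespread or fetal forms.

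The letters that HIF recognises were searched in the promoters of the members, to show where these letters occur in genes whose values are given below. Promoters were taken from RefSeq (GRCh38.p14) as 250 bases before and 50 bases after each start, and ACGTG and GCGTG were searched on both strands, so that the palindrome CACGTG counts on both. The table held promoters for 30 of the 34 members, 60 in all because of alternative starts. Either motif was present in 66.7% of these 60 and in 48.4% of all 35116 promoters of this length. Among genes with a single promoter, 15 of 17 members (88.2%) and 47.3% of 22114 genes had a match. In the single SLC2A1 promoter the only match was a GCGTG 26 bases after the start. The first 4 stretches are the matches, with 12 bases on each side, of members whose 2 mimic libraries both lay below the controls, none of which passed the test. The last 3 are bases before the start that lie in no annotated exon, from the main hexokinase gene, the phosphoglycerate kinase gene and the mitophagy gene BNIP3, whose log2 fold change below is 0.00. Capitals mark each match or its reverse complement, and all are read 5′ to 3′ on the strand of the gene.

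ENO2, chr12:6914450-6914478 (+): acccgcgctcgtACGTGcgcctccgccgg
PFKFB4, chr3:48556953-48556981 (-): tgagttgggcatGCGTGgtcggaggccgg
ADM, chr11:10304960-10304988 (+): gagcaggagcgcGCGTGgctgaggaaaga
CA9, chr9:35673898-35673926 (+): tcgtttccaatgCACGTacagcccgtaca
HK2, chr2:74834920-74835169 (+): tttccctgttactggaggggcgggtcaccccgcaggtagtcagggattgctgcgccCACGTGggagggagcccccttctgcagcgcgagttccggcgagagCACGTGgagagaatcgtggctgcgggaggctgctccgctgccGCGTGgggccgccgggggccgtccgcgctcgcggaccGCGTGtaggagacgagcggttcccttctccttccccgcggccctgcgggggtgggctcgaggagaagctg
PGK1, chrX:78103998-78104173 (+): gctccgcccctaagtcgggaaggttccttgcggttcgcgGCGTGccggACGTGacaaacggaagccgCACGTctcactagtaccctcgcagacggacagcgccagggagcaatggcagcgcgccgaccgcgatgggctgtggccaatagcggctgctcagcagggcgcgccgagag
BNIP3, chr10:131982014-131982173 (-): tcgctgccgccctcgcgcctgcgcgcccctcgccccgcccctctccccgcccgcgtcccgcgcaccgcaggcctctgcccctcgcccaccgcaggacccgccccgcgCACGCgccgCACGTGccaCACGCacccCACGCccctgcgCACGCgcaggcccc

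The stretches hold 6 matches in HK2, 3 in PGK1 and 6 in BNIP3. The genes shown were picked and the short stretches were cut around a match, so whether matches go with a fold change was not tested. A match is a string of letters and was not tested as a binding site.

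The libraries held 15430539 to 18961222 reads in genes. All 7 hepatocyte markers (ALB, TTR, APOA1, APOB, TF, SERPINA1 and FGB) were detected in every library, with sums of 44915 and 44656 in the mimic libraries and 43851 and 42369.8 in the controls (CPM, reads per 1000000 after TMM scaling). Of these 7, ALB rose (log2 fold change 0.23, adjusted p = 0.0109) and the other 6 did not pass, and their part in the results below was not tested. Of 14 markers of fibroblasts, endothelium and immune cells, COL1A2, LUM, DCN, KDR, PTPRC, CD3E and MS4A1 were at 0 reads throughout. The fibroblast list summed to 17.4 to 22.9 CPM and the endothelial list to 9.31 to 11.5 CPM. The immune list, 1474 to 1619.9 CPM, was almost wholly LYZ. The libraries also differed within groups: on the first principal component mimic library 1 (-23.0) and control library 2 (26.0) were the extremes, and the other 2 libraries lay between them at -4.62 and 1.53.

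Levels per exon length (FPKM, reads per kilobase of annotated exon per 1000000 reads) spanned the abundant payoff steps of glycolysis down to genes close to silence. GAPDH, glyceraldehyde-3-phosphate dehydrogenase, had the highest mean of the 34 at 514 FPKM (range over the 4 libraries 488 to 531), followed by the enolase ENO1 at 475 FPKM (436 to 508), and their ranges overlapped. LDHA, the muscle-type lactate dehydrogenase subunit, and SLC2A1, the glucose transporter GLUT1, came next at 282 and 279.6 FPKM with overlapping ranges. SLC2A3 (GLUT3), TPI1 and PKM followed at 193, 178 and 168 FPKM, each overlapping the next, and then PGK1 at 134 and HK2 at 112 FPKM. A gap separated HK2 (lowest 106 FPKM) from NDRG1, the hypoxia-induced differentiation gene (highest 55.8 FPKM). The other hypoxia-induced genes lay from 53.1 FPKM for NDRG1 to 0.106 FPKM for CA12. At the bottom PFKM, the muscle phosphofructokinase, rested on 13 to 30 reads per library and CA12, a surface carbonic anhydrase, on 6 to 21 reads, so that counting error alone is large for both.

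**Figure D1:**
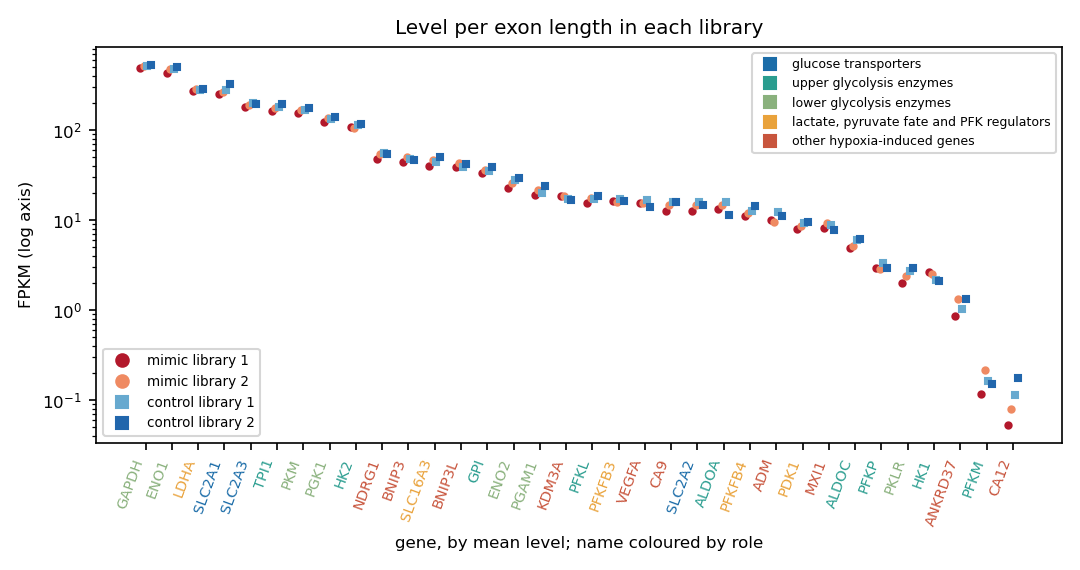
Level of each of the 34 genes in each library, in FPKM on a log axis, ordered by mean and with gene names coloured by role. The 4 libraries of a gene lie close together except for PFKM and CA12, which have the fewest reads, and the scale runs from 514 FPKM for GAPDH to 0.106 FPKM for CA12.

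Several of these levels depend on how reads were assigned. In the GENCODE 29 annotation another gene on the same strand covers 42.3% of the exon sequence of ALDOA, and 13.3% lies opposite an antisense gene, so the ALDOA level of 13.9 FPKM is uncertain. Pseudogenes named after the parent gene numbered 62 for GAPDH, 39 for BNIP3 and 13 for PGAM1, and the table sets reads with several alignments aside in a row of their own. Antisense neighbours cover 38.5% of CA9 and 35.2% of ANKRD37 exon sequence, 17.6% of PKLR, 14.2% of GAPDH and 10.1% of ALDOC, and the labels do not say whether reads were counted by strand.

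Across the 34 genes the mimic libraries stood slightly lower than the controls, and 1 gene, SLC2A1, passed the test. By edgeR's quasi-likelihood F test with Benjamini-Hochberg adjustment over 14464 genes, SLC2A1 fell and none rose, where 0.0691% of all genes tested fell and 0.277% rose. The log2 fold change was below 0 in 26 of the 34 members, against 49.6% of all genes tested. Its median was -0.11 over the members, a difference of a few percent in level, and 0.00 over all genes tested. The members were chosen with earlier results of these data known, so the counts in this paragraph describe the list and do not test it. At an unadjusted p under 0.05, 12 members were lower and 2 higher with the mimic, where 4.37% of all genes were lower, 5.06% higher and 9.43% either. Both mimic libraries lay below both controls in 15 members and above them in 2, against 19.3% and 19.8% of all genes tested. CA12 is among the 26 and the 15, though it passed the filter on low counts only through the controls, where it is higher. With 2 libraries per group the smallest p of an exact permutation test is 0.333, so the test rests on the spread shared across genes. In bulk RNA, fewer cells carrying a transcript and less transcript per cell cannot be told apart.

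**Figure D2:**
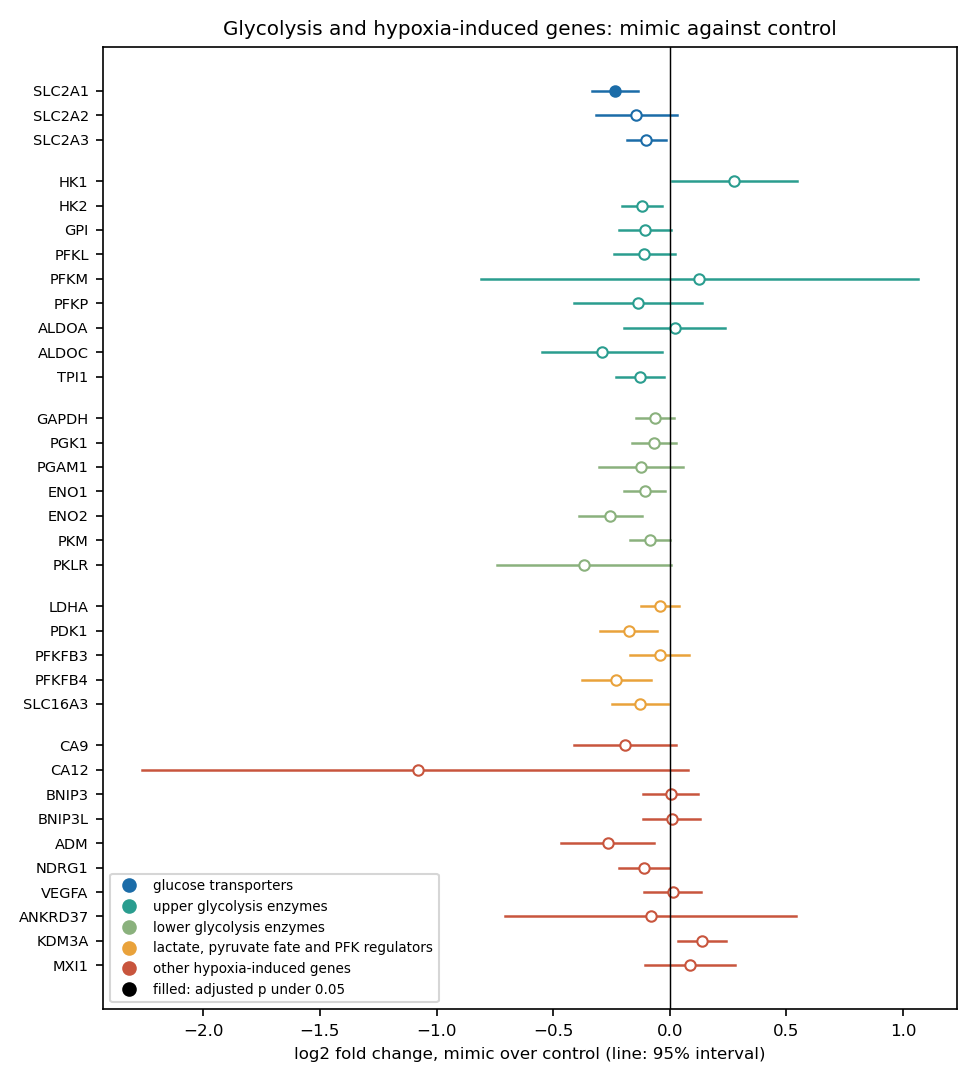
Log2 fold change of mimic over control for each member with its 95% interval, grouped by role. SLC2A1 is the filled point, at -0.23, and most of the others lie left of 0, with HK1 and KDM3A to the right with intervals that leave out 0.

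The shift was unequal between the libraries of a group. Mimic library 1 was the lowest of the 4 libraries in 25 of the 34 members, against 27.3% of all genes tested. Control library 2 was the highest in 20 of the 34, against 4105 of all 14464 genes tested. The median deviation of the members from the mean of the 4 libraries (log2 CPM) was -0.12 and 0.01 for mimic libraries 1 and 2, against 0.03 and 0.07 for control libraries 1 and 2. The same 2 libraries lie at the ends of the first principal component of all genes, and the part of this in the result was not tested. The number of members called was 0 without mimic library 1, 2 without mimic library 2 (SLC2A1 and ENO2), 7 without control library 1 (SLC2A1, ENO1, ENO2, GPI, PFKFB4, SLC16A3 and TPI1) and 0 without control library 2. The same fits called 0.130%, 0.789%, 2.78% and 0.144% of all genes tested, so the fit with 7 members called also called the most genes overall. At an unadjusted p under 0.05, 5 and 9 members were lower in the 2 fits that called none (edgeR), against 2.92% and 3.26% of all genes. Without mimic library 1 the log2 fold change of 15 of the 34 members moved toward 0 by over 1.5 times or changed sign, and without control library 2 that of 16. Members below 0 numbered 25, 31, 27 and 28 in the same order, with medians of -0.04, -0.19, -0.12 and -0.07.

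**Figure D3:**
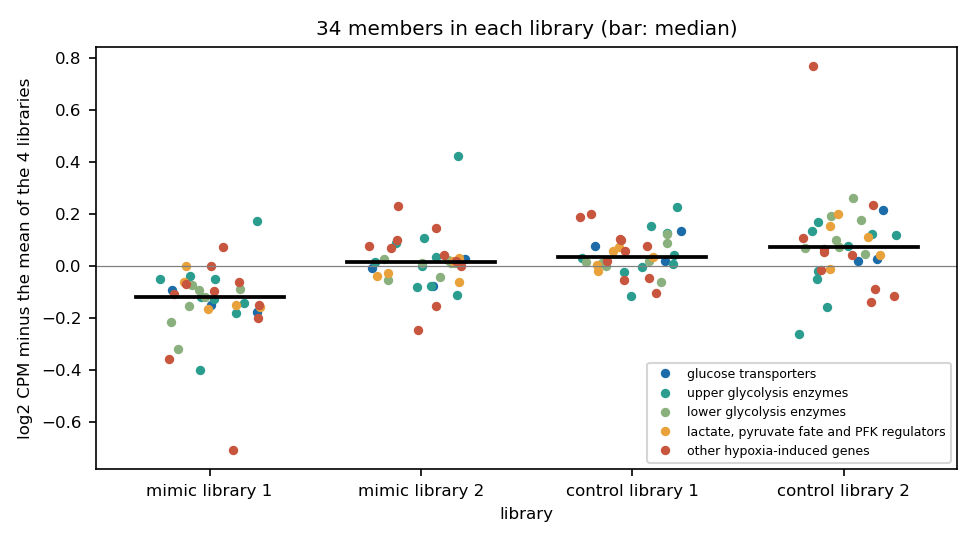
Deviation of each of the 34 members in each library from the mean of the 4 libraries, in log2 CPM, coloured by role, with the median as a bar. The median is -0.12 in mimic library 1 and 0.07 in control library 2, and mimic library 2 and control library 1 lie between them at 0.01 and 0.03.

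Among the glucose transporters SLC2A1 fell by 15% and the other 2 did not pass. SLC2A1 (ENSG00000117394) encodes GLUT1, the high-affinity carrier of most proliferating cells, and lies on chromosome 1 from 42925375 to 42959176 of GRCh38. It stood at 1183 and 1244 CPM in mimic libraries 1 and 2 and at 1332 and 1525 CPM in control libraries 1 and 2. Both mimic libraries were thus below both controls, and control library 2 was the highest. Its mean was 1213 ± 42.8 CPM in mimic libraries against 1428 ± 136 CPM in controls (SD, n = 2 each). The log2 fold change was -0.23 (SE 0.05, 95% interval -0.34 to -0.13, adjusted p = 0.0319). It was -0.20 without mimic library 1 and -0.13 without control library 2, with adjusted p-values of 0.119 and 0.366 in edgeR. When low genes were kept in the test (adjusted p = 0.754), and in DESeq2 (0.519), the call was lost too, and over all 13 alternatives the value lay between -0.33 and -0.13.

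SLC2A3, the neuronal-type carrier GLUT3, stood at 1111 and 1179.6 CPM in the mimic libraries and at 1248 and 1208 CPM in the controls. Both mimic libraries were lower, but the log2 fold change of -0.10 (95% interval -0.18 to -0.02) had an adjusted p of 0.423. SLC2A2 encodes GLUT2, the low-affinity carrier of hepatocytes. It stood at 43.9 and 50.6 CPM against 54.5 and 50.3 CPM, so the groups overlapped. Per exon length GLUT2 made up 2.76% to 3.19% of the 3 transporters, and SLC2A1 and SLC2A3 the rest. The SLC2A1 share of the 3 averaged 56.2% with the mimic and 58.4% in the control, with overlapping libraries.

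None of the 9 enzymes from hexokinase to triosephosphate isomerase passed the test (3 lower and 1 higher at an unadjusted p under 0.05, edgeR), and 6 of the 9 lay below 0 (median -0.11). HK2, the inducible hexokinase of tumours, stood at 660.4 and 641 CPM in the mimic libraries and at 698 and 715 CPM in the controls. The groups did not overlap and the libraries of each group lay close together, with a log2 fold change of -0.12 (95% interval -0.21 to -0.03, adjusted p = 0.326). HK1, the constitutive hexokinase, went the other way, with 16.6 and 15.9 CPM against 13.6 and 13.2 CPM. Both mimic libraries were higher (log2 fold change 0.28, 95% interval 0.01 to 0.55, adjusted p = 0.513). ALDOC, the brain-type aldolase, stood at 14.3 and 15.0 CPM against 17.7 and 18.3 CPM (log2 fold change -0.29, 95% interval -0.55 to -0.04, adjusted p = 0.460).

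TPI1, which interconverts the 2 triose phosphates, stood at 439 and 480.3 CPM in the mimic libraries and at 482 and 523 CPM in the controls. The groups did not overlap, but mimic library 2 and control library 1 were almost equal (log2 fold change -0.13, adjusted p = 0.412). GPI, the isomerase of glucose 6-phosphate, and PFKL, the liver phosphofructokinase, both came to -0.11 on the log2 scale, and in both mimic library 2 lay above control library 1. PFKP, the platelet form, had -0.14, PFKM 0.13 with an interval from -0.81 to 1.06, and ALDOA, the muscle aldolase, 0.02.

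All 7 enzymes from GAPDH to pyruvate kinase lay below 0, with log2 fold changes from -0.37 to -0.06, and none passed the test (2 lower and 0 higher at an unadjusted p under 0.05, edgeR). In all 7 mimic library 1 was the lowest and control library 2 the highest. ENO2, the neuronal enolase that hypoxia induces in many cells, had the smallest p of the members after SLC2A1. It stood at 97.1 and 109 CPM in the mimic libraries and at 119.7 and 127 CPM in the controls. Both mimic libraries were lower, and the log2 fold change was -0.25 (SE 0.06, 95% interval -0.39 to -0.12, adjusted p = 0.103). The adjusted p of ENO2 was 0.00851 without mimic library 2 and 0.00223 without control library 1 (log2 fold changes -0.35 and -0.30). It was 0.732 without mimic library 1 and 0.381 without control library 2 (-0.18 and -0.21). ENO2 (ENSG00000111674) lies on chromosome 12 from 6913745 to 6923698 of GRCh38.

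ENO1 stood at 2301 and 2522 CPM against 2517 and 2678 CPM, the largest count of the members, and mimic library 2 lay just above control library 1 (log2 fold change -0.11, adjusted p = 0.415). GAPDH, often used as a reference gene, stood at 1455 and 1544 CPM against 1552 and 1583 CPM. Both mimic libraries were lower, but the interval of the GAPDH log2 fold change ran from -0.15 to 0.02. PKM, the pyruvate kinase of tumours and most tissues, stood at 1346 and 1449 CPM against 1451 and 1512 CPM (log2 fold change -0.08, 95% interval -0.17 to 0.00). PKLR, the pyruvate kinase of liver and red cells, stood at 6.27 and 7.56 CPM against 8.56 and 9.44 CPM. The libraries did not overlap, but PKLR rested on 96 to 152 reads per library (log2 fold change -0.37, adjusted p = 0.539). PGK1 and PGAM1, the phosphoglycerate kinase and mutase, had log2 fold changes of -0.07 and -0.12 with overlapping libraries.

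The reads of the 16 glycolytic enzymes summed to 0.758% and 0.813% of all reads in genes in mimic libraries 1 and 2 and to 0.827% and 0.874% in control libraries 1 and 2. Both mimic libraries were below both controls in this sum, and mimic library 2 and control library 1 lay closer to each other than either did to the other library of its group.

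**Figure D4:**
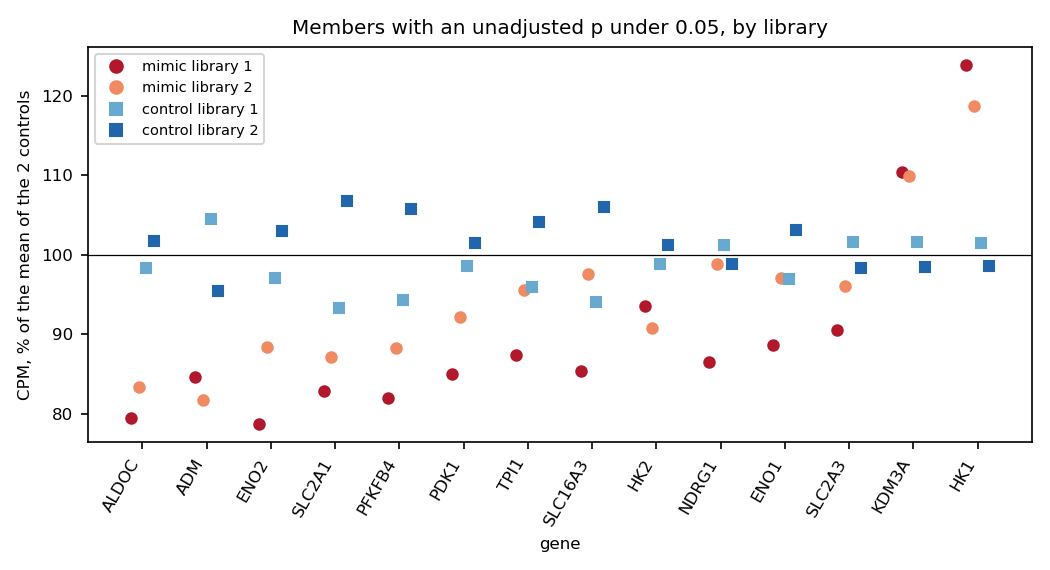
CPM of the 14 members with an unadjusted p under 0.05, in each library, as a percentage of the mean of the 2 controls. Circles for the mimic lie below squares for the control in most genes on the left, HK1 and KDM3A on the right show the opposite order, and mimic library 1 is the lowest circle in 10 of the 12 lower genes.

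The 5 genes at the exit and control points of glycolysis all lay below 0 (median -0.13), and none passed the test (3 lower and 0 higher at an unadjusted p under 0.05, edgeR). PFKFB4, a kinase and phosphatase that sets the level of the activator fructose 2,6-bisphosphate, stood at 67.7 and 72.8 CPM in the mimic libraries and at 77.8 and 87.3 CPM in the controls. The groups did not overlap (log2 fold change -0.23, SE 0.07, 95% interval -0.38 to -0.08, adjusted p = 0.241). Without control library 2 the PFKFB4 value was -0.14 (adjusted p = 0.797), and without control library 1 it was -0.31 (adjusted p = 0.00724). Its paralog PFKFB3 stood at 100.4 and 97.5 CPM against 104 and 99.4 CPM with overlapping groups, a log2 fold change of -0.04. PDK1, the kinase that switches off pyruvate dehydrogenase and so keeps pyruvate from the mitochondria, stood at 119 and 129 CPM against 138 and 142 CPM. Again both mimic libraries were lower (log2 fold change -0.18, 95% interval -0.30 to -0.05, adjusted p = 0.285).

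SLC16A3 encodes MCT4, the exporter of lactate. It stood at 364 and 416 CPM against 401 and 452 CPM, with mimic library 2 above control library 1 (log2 fold change -0.13, adjusted p = 0.504). The SLC16A3 value was -0.04 without mimic library 1 and -0.04 without control library 2, and -0.23 and -0.21 without either of the others. LDHA stood at 1675 and 1773 CPM against 1753 and 1799 CPM, overlapping, and its interval ran from -0.12 to 0.04 on the log2 scale. LDHB, the heart-type subunit of lactate dehydrogenase, was listed at 0 reads in all 4 libraries. Another gene on the same strand shares 33.4% of the LDHB exon sequence in GENCODE 29, and whether this bears on the 0 was not tested.

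The 10 other hypoxia-induced genes were divided, with 5 below and 5 above 0 and a median of -0.04, and none passed the test (2 lower and 1 higher at an unadjusted p under 0.05, edgeR). ADM, the vasodilator peptide adrenomedullin, stood at 27.1 and 26.2 CPM in the mimic libraries and at 33.5 and 30.6 CPM in the controls. The groups did not overlap, and the log2 fold change was -0.27 (SE 0.10, 95% interval -0.47 to -0.07, adjusted p = 0.351). CA9, the carbonic anhydrase that is among the genes most closely tied to HIF, stood at 21.4 and 24.6 CPM against 26.4 and 26.5 CPM (log2 fold change -0.19, 95% interval -0.41 to 0.02). CA12 had 6 and 11 reads in the mimic libraries and 14 and 21 in the controls, which gave -1.08 on the log2 scale (95% interval -2.26 to 0.08). Scaled for library size, both mimic libraries were under the 10-read limit of the filter, and CA12 passed only through the controls. The filter thus favoured a value below 0 for CA12, which is among the 5 of these genes below 0.

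NDRG1 stood at 468 and 535 CPM against 548 and 535 CPM. Mimic library 1 alone was apart there, and the log2 fold change of -0.11 became -0.02 without it. KDM3A, a histone H3 lysine 9 demethylase that HIF induces, was on the other side, with 250.1 and 249 CPM in the mimic libraries and 230.3 and 223 CPM in the controls. The groups did not overlap (log2 fold change 0.14, SE 0.05, 95% interval 0.04 to 0.24, adjusted p = 0.347), and the value lay between 0.12 and 0.16 in all 13 alternatives.

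The mitophagy receptors BNIP3 and BNIP3L, which mark mitochondria for removal, had overlapping groups and fold changes close to 0. BNIP3 stood at 234 and 269 CPM against 254 and 248 CPM (log2 fold change 0.00, 95% interval -0.11 to 0.12). BNIP3L stood at 167 and 185 CPM against 169 and 182 CPM (0.01, 95% interval -0.11 to 0.13). VEGFA, the angiogenic growth factor, stood at 223 and 226 CPM against 239 and 205 CPM, with both mimic libraries inside the range of the controls (0.01, 95% interval -0.11 to 0.13). The intervals of the 3 genes end within 0.13 of 0 on the log2 scale. They rest on a spread shared across genes, with 2 libraries per group. MXI1, an antagonist of MYC, had 0.09 and the ankyrin repeat gene ANKRD37 -0.08, both with overlapping groups.

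The balance between paralogs, which can replace each other at a step, was taken as each one's share in the summed FPKM of the members of its family. HK2 made up 97.7% of the summed FPKM of HK1 and HK2 with the mimic and 98.2% in the control. HK1 had a share of 2.36% and 2.33% in mimic libraries 1 and 2, and of 1.84% and 1.74% in control libraries 1 and 2. HKDC1, a further hexokinase that is not a member, was left out of this sum. Its mean was 11.1 FPKM, against 2.35 FPKM for HK1. The HK1 share was higher in both mimic libraries. The enolase ENO3, not a member, was left out in the same way, with a mean of 5.20 FPKM. The ENO2 share of ENO1 and ENO2 together was 4.94% and 5.07% against 5.54% and 5.54%. The PKLR share of the pyruvate kinases was 1.24% and 1.39% against 1.57% and 1.66%. Both shares were lower in both mimic libraries. The ALDOC share of ALDOA and ALDOC was also lower, 26.9% and 25.9% against 27.3% and 35.2%. The SLC2A3 share of the 3 transporters was higher, 40.7% and 40.8% against 40.5% and 36.8%. In both, control library 1 lay close to the mimic libraries and control library 2 stood apart. PFKL held 83.0% to 85.7% of phosphofructokinase FPKM, and BNIP3 52.4% to 54.9% of the pair with BNIP3L, each with no separation of the groups. No share was tested, since an exact permutation test with 2 libraries per group cannot give a p below 0.333. Separation of the groups is common: 19.3% of all genes tested were lower in both mimic libraries and 19.8% higher.

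Other genes of the pathway were taken from lists chosen, as the members were, with earlier results known. Of 29 tested genes for other steps of glucose and pyruvate metabolism none passed (1 higher and 2 lower at an unadjusted p under 0.05, edgeR), 14 lay below 0 and the median was 0.00. SLC2A10, the transporter GLUT10, had the smallest p of them (log2 fold change -0.30, adjusted p = 0.399). Of 19 tested genes for the pentose phosphate pathway and glycogen none passed (0 higher and 2 lower at an unadjusted p under 0.05), with a median of 0.01. The difference between these lists and the members was not tested.

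Among 32 tested further genes that hypoxia induces, 1 rose and 2 fell, with a median of -0.01. PLOD2, a collagen lysyl hydroxylase, rose from 879 and 829.7 CPM in the controls to 1036 and 1062 CPM (log2 fold change 0.30, adjusted p = 0.00104). IGFBP1, a binding protein of insulin-like growth factors, and AKAP12, a scaffold of protein kinase A, fell, with log2 fold changes of -0.34 and -0.42. Both were known from earlier results to be lower when the list was drawn up, and DESeq2 called neither. None of the 3 was called with no filter on low counts.

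HIF1A, an oxygen-regulated alpha subunit of HIF, rose while SLC2A1 fell. It stood at 228 and 213 CPM in the mimic libraries and at 187 and 186 CPM in the controls, with no overlap (log2 fold change 0.24, 95% interval 0.14 to 0.35, adjusted p = 0.0369). HIF1A was not called without mimic library 1, without control library 2, with upper-quartile factors, with library totals or with no filter on low counts. Of 9 tested HIF subunits and oxygen sensors 1 rose and none fell (1 lower at an unadjusted p under 0.05, edgeR). EPAS1, another alpha subunit of HIF, stood at 305 and 303 CPM against 309.7 and 293 CPM, with overlapping groups (log2 fold change 0.01, adjusted p = 0.968). EGLN3, a prolyl hydroxylase that HIF itself induces, stood at 28.1 and 37.5 CPM against 41.1 and 43.0 CPM (log2 fold change -0.34, adjusted p = 0.220). These are transcript levels, and the amount of HIF protein was not measured.

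**Figure D5:**
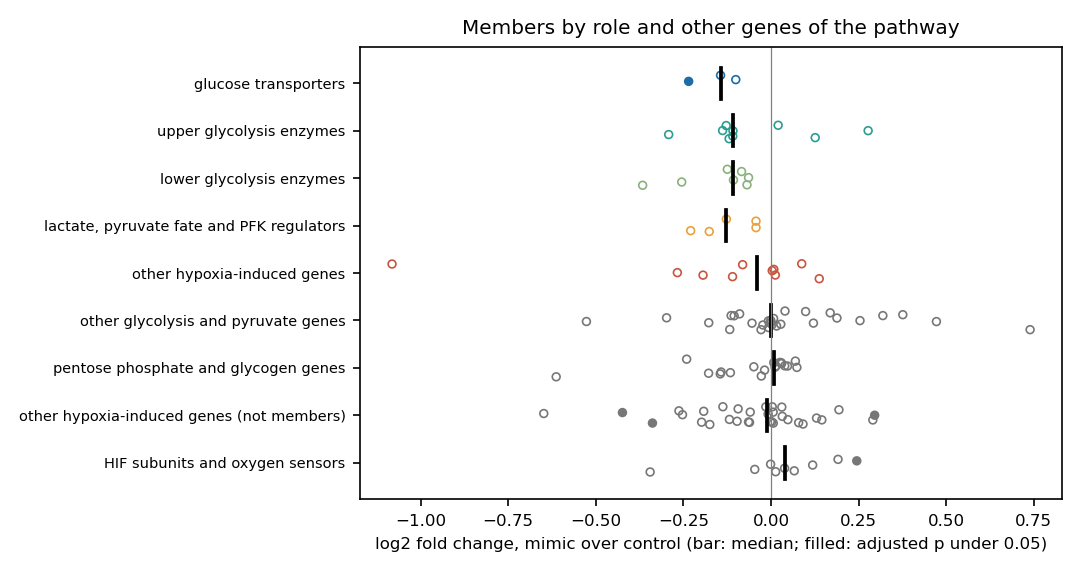
Log2 fold change of mimic over control for each tested gene, by role for the members (coloured) and for the other lists (grey), with the median as a bar and called genes filled. Medians of the first 4 roles lie between -0.14 and -0.11, that of the other hypoxia-induced members at -0.04, and those of the grey lists between -0.01 and 0.04.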

How the data were processed

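Poly(A)-selected RNA of steatotic Hep G2 cultures was sequenced in 4 libraries. The authors deposited raw counts of reads per Ensembl gene, not normalized. The build GRCh38.p14 and the tools STAR, Bowtie2, HTSeq and FastQC are named, per the submitters' processing notes. The notes give no tool versions, no annotation release, and do not say how strand was handled in counting. Columns headed NC were read as negative control. The prefix of the other 2 columns has no explanation in the labels, and these were read as mimic by elimination. Library numbers follow the column names. The labels do not say whether libraries came from separate cultures, so p-values measure the spread between libraries, which may be technical.

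The 5 HTSeq summary rows (23.1% to 24.1% of each library) were left out. Low genes were removed by filterByExpr (at least 10 reads, total at least 15). The rest were scaled with TMM and tested with edgeR 4.0.16 in R 4.3.3 (glmQLFit, legacy = FALSE, glmQLFTest; Benjamini-Hochberg over 14464 genes, threshold 0.05). Adjusted p-values are from this test unless another is named. The SE is the log2 coefficient over the root of F. FPKM used the union of GENCODE 29 exons, which understates genes with long rare exons. DESeq2 1.42.0 and limma 3.58.1 served as alternatives.

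All members are described; values per library are given for those called, those at an unadjusted p under 0.05, and the most abundant of each role. Members and lists were chosen with earlier results of these data known.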

Additional observations from a re-analysis of the deposited data

How the results depend on the processing

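Of the 34 members, 26 kept their direction in each of the 13 alternatives that gave a value. SLC2A1 was lower throughout and was called in 9; its adjusted p was 0.754 with no filter on low counts (log2 fold change -0.24) and 0.519 in DESeq2 (-0.24). The number of members called, 1, was 0 with no filter and 0 in DESeq2 (9 lower at an unadjusted p under 0.05 in each), and 0 to 7 with 1 library left out. Over all genes edgeR called 50, 0 with no filter (1514 at an unadjusted p under 0.05), DESeq2 30, and edgeR 20 to 424 with a library left out; the cause was not tested. The member median ranged from -0.19 to -0.04 with a library left out. Genes of the other pathway lists that were called, 4, numbered 0 with no filter, 2 in DESeq2 and 3 to 11 with a library left out. With a replicate block from the numbers in the column names 6 members were called (SLC2A1, ENO1, ENO2, PDK1, PFKFB4 and TPI1), 7 genes of the other lists and 306 genes in all. The labels number the samples without pairing them, so the block rests on the number in the column name. Over all 14464 genes same-numbered columns did not deviate together (correlation 0.02). The median deviation of the members, though, was lower in library 1 than in library 2 of both groups. It was -0.12 against 0.01 for the mimic and 0.03 against 0.07 for the control. Whether the numbers mark a shared batch was not tested.

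Without lengths the share of ENO2 differed by -0.44 and that of PKLR by -0.11 percentage points (-0.53 and -0.30 with lengths). Values near 0 changed sign. BNIP3 was -0.01 with upper-quartile factors, -0.02 with library totals, 0.00 with a filter at 10 CPM and -0.10 to 0.09 with a library left out. BNIP3L was 0.00, and -0.01 with library totals, and -0.07 to 0.08 with a library left out. VEGFA was -0.01 with library totals and -0.09 to 0.13 with a library left out. The same ranges were -0.44 to 0.46 for PFKM, -0.20 to 0.29 for ALDOA, -0.25 to 0.01 for PGAM1, -0.45 to 0.16 for ANKRD37 and -0.03 to 0.19 for MXI1. Depth limits PFKM, CA12 and ANKRD37, with at most 64 reads in any library.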
